A study of Bos taurus with 10 samples.

Results

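The distal 2 Mb of bovine chromosomes 1 to 28 held 57305 CG sites that were covered by at least 8 reads in at least 1 of 10 tissues, which was 12.2 % of the 468619 CG sites covered in the whole series. A site was taken into the window when it lay within 2 Mb of the highest position covered on its chromosome in any tissue, so that position alone and no methylation value chose the members. Of these sites, 5825 were covered in all 10 tissues, against 53007 in the whole series, and these shared sites carried the comparisons with the 8991 shared sites of the next 8 Mb inward on the same chromosomes. The data were reduced representation bisulfite sequencing (RRBS) libraries, 1 per tissue, from cattle related to the Hereford cow L1 Dominette 01449, this cow included. Juvenile animals gave the frontal cortex, ileum, abomasum and mammary gland parenchyma, and adults gave skeletal muscle (near the caesarian site), intercaruncular uterus, whole testes, nucleated blood cells and a mammary gland that had been lactating for 90 d. The rumen was fetal, at d 180, and like the testes it was male, whereas all other samples were female. No treatment was applied, and each library was made from whole tissue or whole nucleated blood cells, so that a level is an average over the cell types present. Age, sex and animal therefore differed together with tissue and cannot be told apart from it. The tissue labels were not checked against marker genes, since no gene annotation of the UMD3.1 build was used here, and for the same reason no gene is named.

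In mammalian DNA, a methyl group is added mostly to the cytosine of a CG pair. Dense runs of CG sites at active promoters are usually unmethylated, whereas CG sites elsewhere are mostly methylated. Bovine autosomes are acrocentric, with the centromere near the start of the sequence, so the last covered positions lie at the end of the long arm, beside the telomere. Mammalian subtelomeres are known as gene-rich and GC-rich stretches whose DNA is often heavily methylated outside CG islands. In RRBS, *MspI* cuts at CCGG whatever its methylation, short fragments are kept, and bisulfite turns unmethylated cytosines into a base read as T. The methylation level of a site is thus the percentage of its reads that kept the cytosine.

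Reads summed over all cytosines of a library ranged from 16125651 in abomasum to 40089443 in testis, and the median coverage of the shared distal sites was 11 reads in abomasum and between 30 and 48 reads in the other tissues. The shared distal sites lay in short runs. With a run defined as at least 5 shared CG sites spaced by no more than 200 bp, 509 such clusters held 5360 of the 5825 sites, with a median of 9 sites over 41 bp. The sequences of 8 clusters are given here as the forward strand of UMD3.1, rebuilt from the bases that the deposited files give around each cytosine, to show what fully methylated, unmethylated and tissue-dependent distal DNA looked like in these libraries. Capitals mark the CG pairs read in all 10 tissues and lower case marks all other bases. For the chromosome 11 and chromosome 9 clusters only a stretch without gaps is shown, with 17 CG pairs in capitals on chromosome 11 and 8 on chromosome 9, while their levels are over all 86 and 19 sites. The labels of both describe the whole cluster. The level of the shown stretch alone was not computed. On chromosome 11, site 107284883 inside the stretch had a level of 53.6 % in testis, against 91.5 to 100 % elsewhere. On chromosome 9 the tissue difference may lie outside the shown stretch.

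Methylated and lower in testis, chr11:107284835-107284957: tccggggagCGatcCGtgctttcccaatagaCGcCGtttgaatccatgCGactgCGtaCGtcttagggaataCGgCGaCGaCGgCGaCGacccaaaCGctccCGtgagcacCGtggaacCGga

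Methylated in all tissues, chr17:73520719-73520762: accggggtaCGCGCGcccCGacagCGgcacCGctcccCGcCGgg

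Unmethylated in all tissues, chr14:84504191-84504285: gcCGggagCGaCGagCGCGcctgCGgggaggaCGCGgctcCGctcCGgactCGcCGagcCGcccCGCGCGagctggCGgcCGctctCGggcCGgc

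Unmethylated in every read, chr25:42221434-42221483: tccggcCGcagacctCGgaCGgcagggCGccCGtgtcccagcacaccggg

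Higher in testis, chr22:60053748-60053798: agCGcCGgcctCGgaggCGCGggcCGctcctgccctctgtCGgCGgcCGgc

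Lower in testis, chr22:61124606-61124685: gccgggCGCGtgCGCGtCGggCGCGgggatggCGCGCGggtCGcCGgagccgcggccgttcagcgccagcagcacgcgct

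Higher in skeletal muscle, chr9:105515447-105515495: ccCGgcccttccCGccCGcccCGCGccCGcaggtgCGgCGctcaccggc

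Lower in skeletal muscle, chr23:51288995-51289047: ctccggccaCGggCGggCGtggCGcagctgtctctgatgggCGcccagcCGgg

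A methylated and an unmethylated stretch of this set had nearly the same base composition. The chromosome 17 cluster, with a level of 98.6 % ± 0.853 (SD, 10 tissues), had a GC content of 84.1 % and a ratio of observed to expected CG pairs of 1.18. The chromosome 14 cluster, with a level of 1.04 % ± 0.318, had a GC content of 84.2 % and a ratio of 1.19. These values describe single sequences and were not tested.

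Distal CG sites were more methylated than the sites of the next 8 Mb in every tissue. Levels were averaged over the sites of a window within a chromosome and then over the 26 chromosomes with at least 20 shared sites in both windows. The distal level was lowest in testis (38.6 %), at 39.6 % in mammary gland parenchyma, 40.2 % in lactating mammary gland, 40.7 % in rumen, 41.5 % in skeletal muscle, 41.9 % in abomasum, 42.2 % in frontal cortex, 43.4 % in uterus and 43.5 % in ileum, and highest in nucleated blood cells (45.7 %). Inward, the lowest level was 28.96 %, in testis, and the highest 36.4 %, in nucleated blood cells. Testis was lowest and blood highest in both windows. The distal levels of 10 tissues all lay above all 10 inward levels. The means were 41.7 % ± 2.10 and 32.2 % ± 2.09 (SD, n = 10 tissues), a difference of 9.54 ± 0.826 points, positive in every one of the 10 tissues (two-sided sign-flip test over tissues, exact permutation, p = 0.00195, adjusted p = 0.00313 over 8 tests). The p-value is the smallest that 10 tissues allow. The direction was the opposite at sites with 20 reads in all 10 tissues (-10.9 points) and against the adjacent 2 Mb alone (-2.01 points), as given with the profile and the depth of coverage. Because every tissue was read at the same sites of the same chromosomes, the SD and p measure the agreement between tissues and not the spread between chromosomes.

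**Figure D1:**
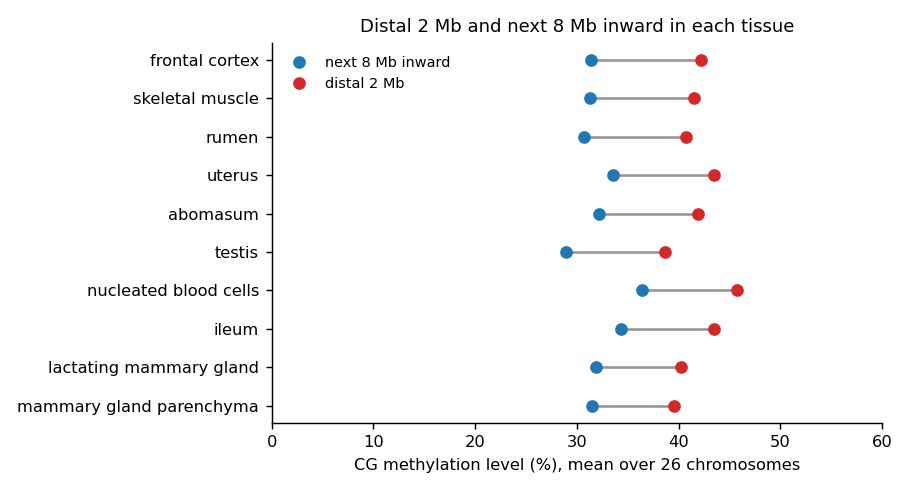
CG methylation level (%, x axis from 0) of the distal 2 Mb (red) and the next 8 Mb inward (blue) in each of 10 tissues, with 1 library per tissue, ordered by the difference between both windows. Points are means over 26 chromosomes and grey lines join both windows. The gap is 8.11 points in mammary gland parenchyma and 10.8 points in frontal cortex, and the other tissues lie between.

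The tissues differed little in the size of this gap. It was smallest in mammary gland parenchyma (8.11 points) and largest in frontal cortex (10.8 points). Testis, the tissue that contains germ cells, had a gap of 9.67 points against 9.52 ± 0.875 (SD, n = 9) in the other tissues, a difference of 0.151 points (two-sided exact permutation of the testis label over 10 tissues, p = 1, where the smallest possible p is 0.1). Over the sites that each tissue covered by itself, the pooled distal level was between 48.1 % (mammary gland parenchyma) and 57.5 % (abomasum), above the inward level of the same tissue in each case. Testis had the smallest pooled gap over its own sites, at 6.11 points.

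The difference came from both ends of the methylation scale. On average over chromosomes, 51.3 % ± 1.51 of distal sites had a level below 20 %, against 60.9 % ± 1.40 of inward sites, a difference of -9.52 ± 0.565 points that was negative in 10 of 10 tissues. Sites above 80 % made up 34.6 % ± 3.70 of distal and 23.8 % ± 3.05 of inward sites, a difference of 10.8 ± 1.77 points that was positive in 10 of 10 tissues. Both differences had p = 0.00195 and adjusted p = 0.00313 in the same exact permutation test. At sites with 20 reads in all 10 tissues both turned, to 8.58 points for the share below 20 % and -19.0 points for the share above 80 %. Pooled over chromosomes, 2434 distal sites (41.8 %) were below 20 % in all 10 tissues and 842 (14.5 %) were above 80 % in all 10. The inward shares were 53.1 % and 9.47 %. The remaining 2549 distal sites (43.8 %) changed class with the tissue or lay between both limits, and the median range of a distal site over the 10 tissues was 15 points, against 11.1 points inward.

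Cytosines outside CG pairs carried little methylation in either window. In the CHG context, where H is any base but G, the distal level was 0.967 % ± 0.0816 and the inward level 1.01 % ± 0.0781, a difference of -0.0463 ± 0.0598 points (exact permutation test, p = 0.0410, adjusted p = 0.0469). In the CHH context the levels were 1.52 % ± 0.0821 and 1.60 % ± 0.0735, a difference of -0.0865 ± 0.0569 points (p = 0.00391, adjusted p = 0.00521, exact permutation test). At 8 reads both differences were below 0.1 points and of the opposite sign to that in the CG context. At 20 reads in all tissues the CHG difference turned to 0.868 points (2 chromosomes) and the CHH difference was -0.583 points. At 20 reads in the 9 tissues other than abomasum they were -0.0263 points (exact permutation test, p = 0.125) and -0.400 points, and pooled over chromosomes the CHH difference did not pass the test (p = 0.0664, exact permutation test). Incomplete bisulfite conversion was not subtracted from these levels.

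Covered CG sites were crowded at the distal ends. The distal window held 343 ± 72.1 covered CG sites per Mb and the inward window 124 ± 30.9 (SD, n = 10 tissues). With the log2 ratios of 28 chromosomes averaged, the ratio was 2.27 and ranged from 2.03 in ileum to 2.45 in lactating mammary gland (exact permutation test on the log2 ratio, p = 0.00195, adjusted p = 0.00313). The ratio was above 1 on 23 of 28 chromosomes. The sequence around the covered distal cytosines had a GC content of 71.7 %, against 68.9 % inward and 68.9 % over chromosomes 1 to 28. The telomere repeat unit TTAGGG, searched with its reverse complement CCCTAA, occurred 35 times in 521329 rebuilt distal bases, or 0.671 times per 10 kb. It occurred 0.576 times per 10 kb inward and 0.694 times over all covered bases of these chromosomes. The distal rate lay between both of these. A match is only a match of letters in the covered sequence. CG sites within a CCGG made up 12.98 % of distal and 13.1 % of inward shared sites.

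Site density moved with the methylation level inside each window. Distal sites with at most 4 other shared sites within 100 bp had a level of 67.5 % ± 2.85, and those with at least 20 had 24.3 % ± 3.097. Within each of 5 density classes the distal sites were the more methylated ones, by 7.28, 10.8, 11.2, 5.48 and 6.88 points from the sparsest to the densest class, in 10 of 10 tissues each time. Distal and inward sites had a median of 10 and 11 such neighbours.

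The profile along the chromosome pooled the shared sites of all chromosomes in each bin. In bins of 0.5 Mb, the mean over tissues was between 40.9 % and 53.0 % in each of the 8 bins from 0 to 4 Mb and between 13.8 % and 41.4 % in the bins from 4 to 10 Mb. On either side of the 2 Mb limit the levels were 43.1 % ± 2.62 (960 sites) just inside and 53.0 % ± 3.12 (809 sites) just outside. The drop of the pooled level lay further in, between 41.6 % ± 2.62 at 3.5 to 4 Mb (17 chromosomes) and 23.8 % ± 2.59 at 4 to 4.5 Mb (15 chromosomes). The median over chromosomes was 35.7 % at 1 to 1.5 Mb and 56.2 % at 2 to 2.5 Mb. It was 33.6 % at 3.5 to 4 Mb and 21.8 % at 4 to 4.5 Mb. A limit common to all chromosomes was not tested. The bin from 6.5 to 7 Mb rose again to 41.4 %, while its median over chromosomes was 15.6 %. Nucleated blood cells had the highest level of all tissues in each of the 20 bins.

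**Figure D2:**
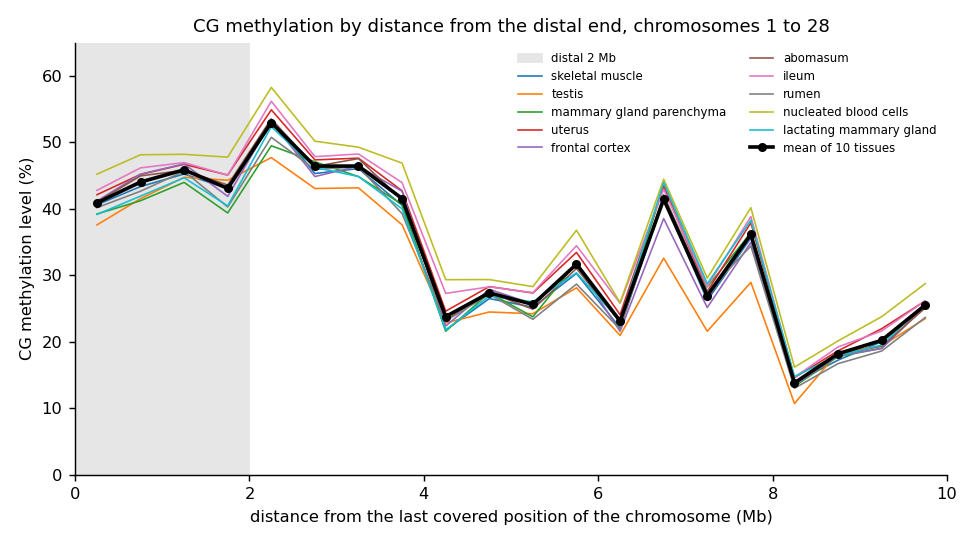
CG methylation level (%, y axis) at shared sites of chromosomes 1 to 28 against the distance from the last covered position (Mb, x axis), in bins of 0.5 Mb, with 1 thin line per tissue, the mean of 10 tissues in black and the distal 2 Mb shaded. Levels pooled over chromosomes are 40.9 % or higher up to 4 Mb and drop to 23.8 % in the next bin, with a second peak of 41.4 % at 6.5 to 7 Mb.

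Against the adjacent 2 Mb alone, the distal window was not the higher one. Over the 25 chromosomes with enough sites, the distal level was 42.0 % and that of the adjacent 2 Mb 44.0 %, a difference of -2.01 ± 0.793 points that was negative in all 10 tissues (exact permutation test, two-sided, p = 0.00195), although 14 of 25 chromosomes were positive. Against the stretch from 4 to 10 Mb the distal level was 16.8 ± 1.02 points higher, in 10 of 10 tissues and on 22 of 26 chromosomes (p = 0.00195, exact permutation test). Close to the end, the last 0.1 Mb had 387 shared sites on 15 chromosomes and a level of 49.8 % ± 4.31, and the next 0.4 Mb a level of 38.2 % ± 1.87. In the last 0.1 Mb only 4 chromosomes had at least 20 sites, so this value rests on few chromosomes.

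Compared with the first 2 Mb of the same chromosomes, on the centromere side, no difference beyond the spread between tissues was found. The distal level was 42.2 % ± 2.31 and the centromere-side level 42.9 % ± 4.15 over 20 chromosomes, a difference of -0.690 ± 2.89 points (exact permutation test, p = 0.473). It was positive in 2 of 10 tissues, with 5.91 points in testis as the highest and -4.39 points in mammary gland parenchyma as the lowest value. The call depended on the coverage minimum: the distal level was the lower one at 20 reads in all 10 tissues (-38.3 points on 3 chromosomes, exact permutation test, p = 0.00195) and at 20 reads in the 9 tissues other than abomasum (-3.93 points, p = 0.0117, exact permutation test).

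Chromosomes differed far more than tissues did. Of the 26 chromosomes compared, 18 had the higher level in the distal window, 16 of them in all 10 tissues, and 4 chromosomes were lower in all 10. The median difference over chromosomes was 6.89 points and the SD over chromosomes 19.7 points. On single chromosomes the SD over tissues ran from 1.42 points (chromosome 17) to 7.10 points (chromosome 13). For tissue values averaged over the 26 chromosomes it was 0.826 points. Distal levels of single chromosomes ran from 0.805 % to 73.0 % and inward levels from 12.5 % to 57.8 %.

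**Figure D3:**
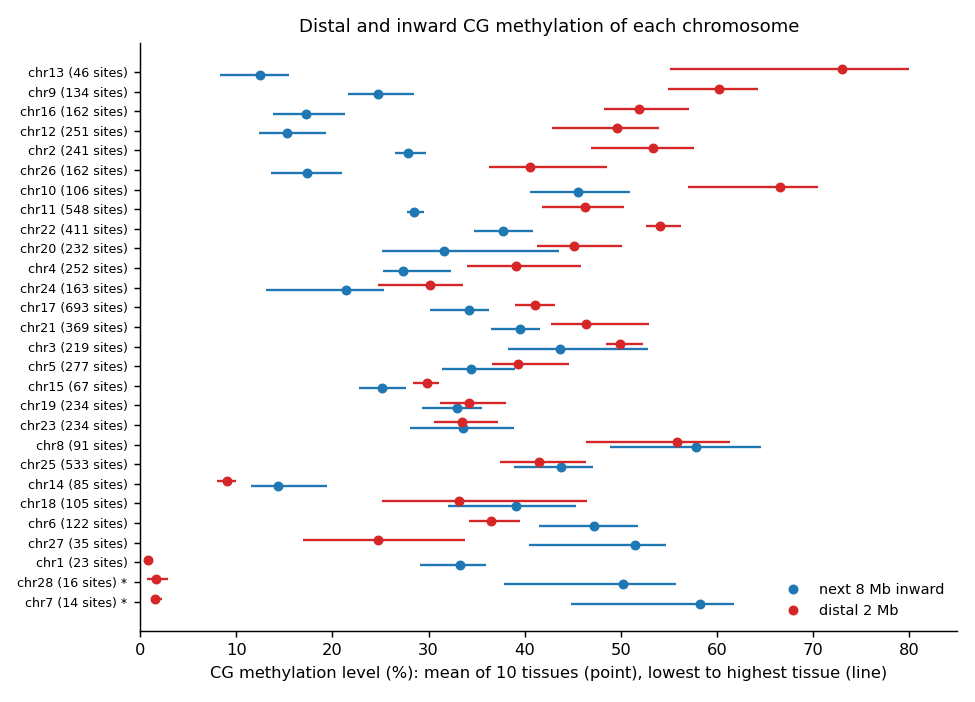
CG methylation level (%, x axis from 0) of the distal 2 Mb (red) and the next 8 Mb inward (blue) of chromosomes 1 to 28, ordered by their difference, with the number of shared distal sites in brackets. Points are means of 10 tissues, lines span the lowest to the highest tissue, and an asterisk marks chromosomes 7 and 28, left out of the means for their 14 and 16 distal sites. Chromosome 13 has the widest gap, at 60.5 points, and chromosome 1 has a distal level of 0.805 %.

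Chromosome 13 had the largest excess. Its 46 distal sites had a level of 73.0 % ± 6.68, its 365 inward sites 12.5 % ± 2.31, and the difference was 60.5 ± 7.10 points. Testis stood apart from the other tissues on this chromosome, with a distal level of 55.1 % and a difference of 41.7 points, while the other 9 tissues had differences of 59.6 to 67.7 points. Next came chromosome 9 (35.4 ± 2.43 points, 134 sites), chromosome 16 (34.7 ± 2.11 points, 162 sites), chromosome 12 (34.3 ± 2.97 points, 251 sites) and chromosome 2 (25.5 ± 2.87 points, 241 sites). Chromosome 2 turned to -8.66 points with sites weighted by reads and to -51.4 points at 20 reads. At 20 reads in the 9 tissues other than abomasum, chromosome 13 had 36.2 points and chromosome 16 had 13.3 points. At 8 reads, without weights, the distal level of every tissue on these chromosomes lay above the inward level of every tissue. The 3 chromosomes with the most distal sites had smaller excesses or none, with 6.92 ± 1.42 points on chromosome 17 (693 sites), 17.8 ± 1.90 points on chromosome 11 (548 sites) and -2.25 ± 2.42 points on chromosome 25 (533 sites). At 20 reads without abomasum, chromosome 17 had 3.79 points and chromosome 25 had 1.60 points. The 5 chromosomes with the most distal sites held 43.8 % of all shared distal sites.

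The chromosomes with the 5 lowest differences had between 23 and 122 shared distal sites, and chromosome 13, with the highest difference, had 46. On chromosome 1 the difference was -32.5 ± 1.87 points, but its distal window held 23 shared sites, 20 of them in 1 unmethylated cluster of 43 bp that lay 1869 kb from the end. The differences were -26.8 ± 3.15 points on chromosome 27 (35 sites), -10.8 ± 3.05 points on chromosome 6 (122 sites), -5.95 ± 4.28 points on chromosome 18 (105 sites) and -5.26 ± 1.94 points on chromosome 14 (85 sites). Chromosomes 1, 6, 14 and 27 were lower in all 10 tissues, whereas chromosome 18 was higher in nucleated blood cells, at 1.24 points. At 20 reads without abomasum the difference was -21.5 points on chromosome 1, -21.7 points on chromosome 18 and 4.52 points on chromosome 14. Chromosomes 7 and 28, under the minimum of 20 sites, had distal levels of 1.54 % and 1.66 % and differences of -56.7 and -48.6 points. Without chromosome 13 the mean difference over chromosomes was 7.497 points, and without chromosome 1 it was 11.2 points.

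Most chromosomes held both methylated and unmethylated clusters in the distal window. Of the 509 distal clusters, 196 (38.5 %) were below 20 % in all 10 tissues and 103 (20.2 %) were above 80 % in all 10. Of the 738 inward clusters these classes took 52.3 % and 12.1 %. Clusters of both classes occurred in the distal window of 23 of 28 chromosomes. Chromosomes 1, 7, 27 and 28 held unmethylated clusters and no fully methylated one, and chromosome 13 held the reverse. Neighbouring clusters up to 1 kb apart fell in the same class (mean level below 20 %, above 80 % or between) in 25 of 30 pairs, those 1 to 10 kb apart in 41 of 85 pairs and those further apart in 149 of 366 pairs. Pairs share chromosomes and libraries, and these shares were not tested.

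**Figure D4:**
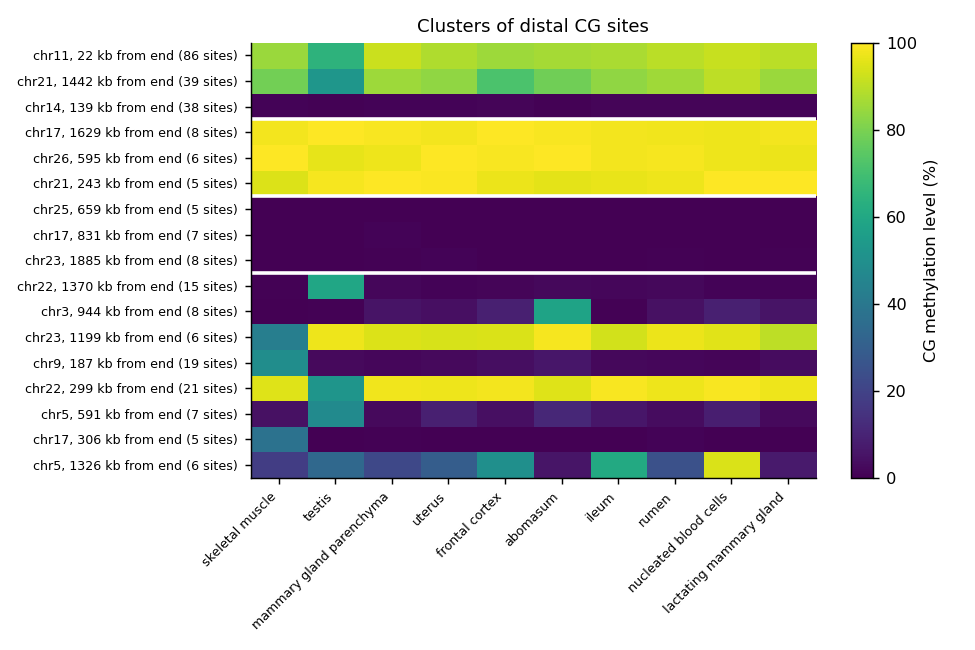
Mean CG methylation level (colour scale, 0 to 100 %) of 17 distal clusters in rows, with chromosome, distance from the last covered position and number of shared sites, in 10 tissues in columns. White lines separate, from the top, the 3 clusters with the most sites, the 3 with the highest level, the 3 with the lowest level and the 8 chosen for the gap between 1 tissue and the nearest other (at most 3 per tissue). In the last block a single tissue departs from the others, such as testis at 59.1 % in a chromosome 22 cluster where no other tissue exceeds 2.31 %.

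The cluster with the most sites lay next to the end of chromosome 11, at chr11:107284718-107285432, 21.6 kb from the last covered position. Its 86 sites had a level of 64.8 % in testis and of 85.2 % in skeletal muscle to 91.9 % in mammary gland parenchyma in the other tissues. Testis alone lay below the range of the others. The next largest, at chr21:70102894-70103215, had 39 sites with 52.6 % in testis and 71.6 % in frontal cortex to 89.9 % in nucleated blood cells elsewhere. The third, at chr14:84504193-84504283, had 38 sites and no tissue above 1.41 %. In a cluster of chromosome 25, at chr25:42221441-42221466, no methylated read was found at its 5 sites in any of the 10 tissues. With 50 reads summed over these sites in the tissue with the fewest, a count of 0 allows a level of up to 6 %, for counting error only, and a read counts at each site it covers.

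In some clusters 1 tissue departed from all others. By a gap of more than 25 points between 1 tissue and the nearest other, 30 of 509 clusters stood out (5.89 %). Testis was the lower one in 13 of them and the higher one in 2. Inward, 35 of 738 clusters stood out (4.74 %), 11 of them lower in testis, so that the shares of both windows were near each other. The clusters given here were chosen for this gap, so their gaps are a description without a test. At chr22:60053750-60053796 (15 sites) testis had 59.1 %, against 0.568 to 2.31 % in the other 9 tissues. At chr22:61124613-61124651 (21 sites) testis had 52.2 %, against 94.97 to 99.2 %. Testis therefore departed in opposite directions in these clusters of the same chromosome. At chr5:120598886-120598927 (7 sites) testis had 47.7 %, against 2.38 to 10.97 %.

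Skeletal muscle stood apart in 3 of the clusters chosen, the most that the choice allowed for any tissue. It was at 48.9 % at chr9:105515352-105515485 (19 sites), against 1.31 to 5.92 % in the other tissues. At chr17:74843775-74843789 (5 sites) it was at 37.6 %, against 0 to 0.976 %. At chr23:51289005-51289045 (6 sites) it was lower, at 42.7 %, against 90.2 to 98.7 %. Abomasum, the shallowest library, had 58.2 % at chr3:120474910-120474948 (8 sites), against 0 to 8.65 %, with a total of 104 reads over the sites in the tissue with the fewest. Nucleated blood cells had 94.3 % at chr5:119863995-119864031 (6 sites), where the other tissues were spread from 5.68 % in abomasum to 60.8 % in ileum. In these clusters the intermediate level of the departing tissue is an average over its cells and alleles, which the counts do not separate.

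Differentially methylated cytosines (DMCs) were called between each pair of tissues by Fisher's exact test on methylated and unmethylated reads, at an adjusted p below 0.01 and with levels that differed by 25 points or more. With 1 library per tissue, a DMC separates libraries. Of the 5825 distal sites, 1346 (23.1 %) were DMCs in at least 1 of 45 pairs, against 19.8 % of the 53007 shared CG sites of the series and 21.51 % of the inward sites. The distal share was thus close to the background. Pairs of tissues differed from 4 distal DMCs between skeletal muscle and abomasum to 527 between testis and nucleated blood cells, with a median of 109. Every pair with abomasum lay below this median, with at most 87, in the pair with testis. The calls depend on the number of reads, and abomasum had a median of 11 at these sites, against 30 to 48 in the other tissues. A low count in these pairs is therefore no measure of likeness. When the reads of each site were thinned to those of its shallowest tissue, 150 distal sites (2.58 %) were called, against 5.36 % of all shared CG sites and 4.37 % of inward sites. The distal window was above the background before thinning and below it after. By chromosome, the called share ran from 0 % on chromosomes 1, 7 and 28 to 52.2 % of the 46 sites of chromosome 13.

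Tissue-specific DMCs, which passed in all 9 pairs of 1 tissue in the same direction, were few at the distal ends. They numbered 13 of 5825 sites (0.223 %), against 0.802 % of the shared CG sites of the series and 72 of 8991 (0.801 %) inward. Lower in testis were 2 distal sites (0.0343 %), against a background of 0.54 % and 41 inward sites. Higher in testis were also 2, against a background of 0.0151 %. Lower in lactating mammary gland were 6 (0.103 %, background 0.0415 %), and 1 each was higher in lactating mammary gland (background 0.0226 %), higher in nucleated blood cells (background 0.0509 %) and lower in rumen (background 0.00189 %). Counts this small were not tested. Each call for another tissue also had to pass against abomasum, with a median of 11 reads at shared distal sites and 12 inward. At 20 reads in all tissues, 6.42 % of distal and 10.9 % of inward sites were left. In the cluster at chr22:61124613-61124651, with testis at 52.2 %, all 21 sites were DMCs and 0 were specific to testis. The part of depth in these counts was not tested.

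Of the 13 sites, 6 had at least 20 reads in every tissue, and 5 of these, at most 2 per tissue, are described. At chr22:59714320, on the reverse strand, all 52 reads of lactating mammary gland were methylated (100 %, 95 % Wilson interval 93.1 to 100 %), against 1.49 to 6.71 % in the other tissues. At chr20:72019773, on the reverse strand and 17.8 kb from the end, lactating mammary gland had 41 of 392 reads methylated (10.5 %, interval 7.80 to 13.9 %), against 51.2 to 69.1 %. On chromosome 11, site 105652127 had 0 of 36 reads methylated in rumen (interval 0 to 9.64 %), against 39.7 to 80.6 % elsewhere. Site 105652107, 20 bp away, had 34 of 35 reads methylated in testis (97.1 %, interval 85.5 to 99.5 %), against 2.78 to 62.5 %. Site 107284883 lay inside the sequence shown for the longest cluster, on chromosome 11, and had 37 of 69 reads methylated in testis (53.6 %, interval 42.0 to 64.9 %), against 91.5 to 100 %. The intervals cover counting error only, since PCR copies were not told apart.

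With abomasum included, the coverage minimum changed the direction of the difference. Among sites shared by all 10 tissues, the distal excess was 9.54 points at 8 reads, 8.76 at 10 reads, 4.87 at 12 reads, -0.387 at 15 reads (exact permutation test, p = 0.416) and -10.9 ± 1.97 points at 20 reads, where it was negative in all 10 tissues (exact permutation test, two-sided, p = 0.00195). At 20 reads, 374 distal sites (6.42 %) and 977 inward sites (10.9 %) were left, and only chromosomes 2, 4, 11 and 22 had at least 20 sites in both windows. The same 4 chromosomes had an excess of 17.8 points at 8 reads. Of the 374 deep distal sites, 25.9 % lay on chromosome 11.

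**Figure D5:**
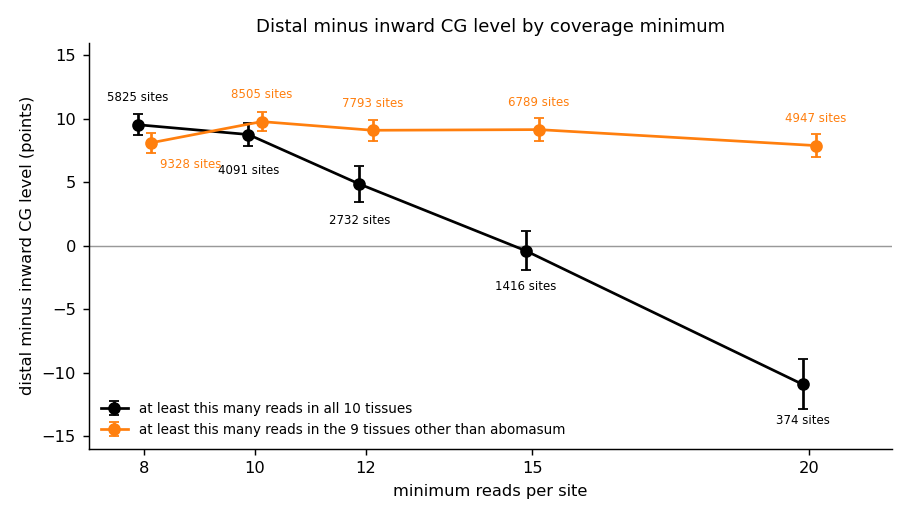
Distal minus inward CG level (points, y axis) against the minimum number of reads per site (x axis), in all 10 tissues (black) and in the 9 tissues other than abomasum (orange). Points are means over chromosomes, bars the SD over tissues and labels the number of shared distal sites. The black line falls from 9.54 at 8 reads to -10.9 at 20 reads, and the orange line stays between 7.89 and 9.78. The chromosomes compared differ between minimums, with 27 at 8 reads and 25 at 20 reads on the orange line.

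Without abomasum the excess remained at every minimum tried. In the other 9 tissues it was 8.11 points at 8 reads, 9.78 at 10, 9.10 at 12, 9.15 at 15 and 7.89 ± 0.936 points at 20 reads, over 4947 distal and 7569 inward sites on 25 chromosomes, and it was positive in 9 of 9 tissues (exact permutation test, p = 0.00391, the smallest possible). In these 9 tissues the number of chromosomes compared fell from 27 at 8 reads to 25 at 20 reads. The same 25 chromosomes had an excess of 11.3 points at 8 reads. Pooled over chromosomes, the excess was 11.5 points at 8 reads and 8.65 points at 20 reads. The median coverage of shared distal sites was 11 reads in abomasum and 37 in the other tissues. At the distal sites with 20 reads in all tissues, these medians were 25 and 53. In 16.3 % of the deep distal sites abomasum had the most reads of all tissues, against 2.95 % of all shared distal sites. The deep sites also had other levels, with 37.4 % against 43.5 % for all shared distal sites, and 51.7 % against 33.7 % inward. Mean reads per site were lower in the distal window. With the log2 ratios of chromosomes averaged, the ratio to the inward window was 0.885 and ran from 0.795 in testis to 0.933 in uterus (exact permutation test, p = 0.00195, adjusted p = 0.00313). Sorted by the reads in the shallowest tissue, the pooled difference was 13.4 points at 8 to 9 reads, 16.4 at 10 to 12, 7.35 at 13 to 19 and -14.3 at 20 or more reads. The part of depth in the reversal at 20 reads was not tested beyond these values.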

How the data were processed

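RRBS libraries of 10 bovine tissues were analysed, 1 library per tissue and no replicates. The authors aligned trimmed reads to UMD3.1 with a modified SOAPaligner pipeline, kept unique reads and deposited cytosines with at least 8 reads. The number of reads on the strand of a cytosine was deposited as a count without normalization and did not exceed 65535 in any library. Methylation levels were deposited as fractions of reads. The authors also deposited a second read count and a p-value with its FDR per cytosine, which were not used.

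Methylated reads were the level multiplied by the reads, whole at every cytosine within 1e-06. Each window was set from the last covered position of its chromosome, and only CG sites with at least 8 reads in all 10 tissues were compared. Site levels were averaged without weights within chromosomes and then over chromosomes with at least 20 sites in both windows. Tissue values were tested by exact sign-flip permutation, two-sided, with Benjamini-Hochberg adjustment over 8 tests. For DMCs, Fisher's exact test was run on all shared cytosines, adjusted within a pair, at q below 0.01 and 25 points. With 1 library per tissue, the sign-flip p-values measure the agreement between the libraries of different tissues. The p-values of Fisher's test and the Wilson intervals cover counting error only. A level resting on 8 reads is coarse, and abomasum, with a median of 10 reads per cytosine, set which sites were shared.

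Named in the text were the chromosomes with the 5 highest and 5 lowest differences and the 3 with most sites, the clusters with most sites, highest and lowest levels and largest gaps of 1 tissue, and tissue-specific sites with at least 20 reads. Of the clusters chosen for a gap, at most 3 were taken per tissue, so larger gaps of a tissue already taken 3 times were passed over. The members and lists were chosen with earlier results of these data known. Scripts ran in Python 3.11.15 (pandas 2.3.3, NumPy 2.4.6, Numba 0.67.0, SciPy 1.17.1), and figures were drawn with matplotlib 3.10.9. Fisher's test, the DMC calls and the window difference were checked on simulated data with seed 1. The permutation tests and Dixon's ratio were not checked in this way. The alternatives were other read minimums, weights, windows, site minimums, site densities and merged strands, and leaving out tissues or chromosomes. The last-numbered autosome was outside the definition of the window and was added as 1 alternative. Genes, CG islands and repeats were not analysed here.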

Additional observations from a re-analysis of the deposited data

Results flagged for a closer look

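Each of 53 values, tested over the 10 tissues, was examined for 1 tissue lying far from the other 9, by Dixon's ratio of the gap to the whole range against its 95 % critical value. Chance alone sets apart about 1 in 20 such groups where they are independent and were not chosen for a gap. Of the 53 values, 15 were set apart. The values include clusters chosen for the gap of 1 tissue, and they share libraries and sites. The number found is therefore no measure against chance. On chromosomes the tissue was testis in 4 of 5 cases. The distal minus inward difference was 41.7 points in testis on chromosome 13, against 59.6 to 67.7 points elsewhere. In testis it was -42.6 points on chromosome 7 (others -60.7 to -52.7), -36.7 points on chromosome 28 (others -54.7 to -45.8) and 3.38 points on chromosome 25 (others -5.12 to -0.740). Chromosomes 7 and 28 had 14 and 16 distal sites. On chromosome 24, skeletal muscle had 18.4 points, against 4.92 to 12.1 points elsewhere. On chromosomes 7, 28 and 25 testis had the lowest inward level of all tissues, at 44.8 %, 37.8 % and 38.9 %. Its distal levels there (2.14 %, 1.09 % and 42.3 %) lay inside the range of the other tissues. The same held for skeletal muscle on chromosome 24, at 13.1 % inward and 31.6 % distal. Only on chromosome 13 did the distal level lie outside the range of the other tissues.

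Of the clusters with the most sites, testis stood apart on chromosome 11 (64.8 %) and chromosome 21 (52.6 %). In a nearly unmethylated cluster of chromosome 17, at 74319382, mammary gland parenchyma had 0.922 %, against 0 to 0.386 % elsewhere. The other 7 clusters had been named for the gap of 1 tissue, so that their appearance here adds nothing. They were the clusters with testis at 59.1 % and 52.2 % on chromosome 22 and at 47.7 % on chromosome 5, abomasum at 58.2 % on chromosome 3, and skeletal muscle at 42.7 % on chromosome 23, 48.9 % on chromosome 9 and 37.6 % on chromosome 17.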

How the results depend on the processing

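Of 22 alternatives for the distal minus inward CG level, 20 kept a positive difference at the smallest possible p. The difference was -10.9 points at 20 reads in all 10 tissues and -2.01 points against the adjacent 2 Mb. It moved by over 1.5 times to 4.37 points with sites weighted by reads, 3.37 points with 1 value per cluster, 5.09 points with a minimum of 1 site, 17.9 points for the distal 3 Mb, and, chosen after seeing the data, 18.0 points for the distal 4 Mb against the next 6 Mb and 16.8 points against 4 to 10 Mb. Leaving out 1 tissue gave 9.39 to 9.69 points, and leaving out 1 chromosome gave 7.497 (without chromosome 13) to 11.2 points (without chromosome 1).

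With 20 reads in all 10 tissues, the distal minus inward share of sites below 20 % became 8.58 points, that above 80 % -19.0 points and the CHG difference 0.868 points (2 chromosomes), and the distal minus centromere-side level was -38.3 points (3 chromosomes). With 20 reads in the 9 tissues other than abomasum, the last of these was -3.93 points (exact permutation test, p = 0.0117) and the CHG difference -0.0263 points (p = 0.125, exact permutation test). Pooled over chromosomes, the CHH difference was -0.0263 points (p = 0.0664, exact permutation test). Over all sites of each tissue, testis lay 4.13 points below the other tissues in the distal minus inward difference (-4.13, exact permutation test, p = 0.1). Distal DMCs numbered 137 at 20 reads (36.6 % against 53.4 % of all CG sites tested), 150 with thinned reads (2.58 against 5.36 %), 967 at 40 points (16.6 against 12.02 %) and 1285 with adjustment over all pairs (22.1 against 18.9 %).

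Single chromosomes changed sign at 20 reads in all tissues, to -51.4 points on chromosome 2, -49.4 on 5, -19.2 on 17, -32.3 on 19, -31.1 on 20, -50.4 on 21, -30.5 on 22 and -46.2 on 26. Of these, only chromosomes 2 and 22 kept at least 20 sites in both windows. Chromosome 21, for example, kept 27 distal and 4 inward sites, and chromosome 26 kept 7 and 5. The sign also changed with weighting by reads on chromosome 2 (-8.66), 5 (-16.7) and 19 (-6.18), at 10 reads on 8 (0.825), 15 (-11.2) and 25 (0.685), and at 20 reads without abomasum on 5 (-3.67), 14 (4.52), 15 (-4.48), 23 (1.34) and 25 (1.60). The causes were not tested. The depth of abomasum and single libraries per tissue limit all comparisons, and chromosomes with few distal sites rest on 1 or 2 clusters. Windows were compared within tissues throughout. Between tissues, no paired analysis was possible because each had 1 library and replicate numbers pair none.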
